A study of Homo sapiens with 6 samples.

Results

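The Rab GTPases are the largest branch of the Ras superfamily. Each Rab cycles between a GTP-bound form, which sits on a particular membrane through lipid groups at its C-terminus and recruits effectors such as tethers, motors and lipid kinases, and a GDP-bound form, which is drawn back into the cytosol. The set of Rabs on a membrane gives vesicles of the secretory and endocytic routes their address. In microglia and macrophages they serve the uptake, digestion and recycling of phagocytosed material and the secretion of cytokines.

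The members are the 62 genes of the count table whose symbol is RAB followed by a number and at most 1 further letter, out of 27469 genes with values. They were measured by 3' RNA sequencing in HMC3, an established line derived from human microglia by SV40 large T antigen. There were 3 libraries of HMC3 cells treated with interleukin-33 (IL-33) for 24 h and 3 libraries of HMC3 cells labelled Control. The labels give a time for the IL-33 libraries only. Nothing in the labels ties the libraries to separate cultures, and the labels give neither a dose nor a vehicle. The p-values therefore reflect how these libraries vary among themselves, a variation that may be technical. All libraries come from this 1 line.

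IL-33 libraries held 8294747 to 10217529 counts and Control libraries 5739947 to 9933395. Control 3 was the shallowest library and stood apart: across the tested genes its level was the lowest or the highest of the 6 libraries in 53.2% of genes. Of 12 microglia markers, 6 had 0 counts in every library, namely P2RY12, TMEM119, CX3CR1, SPI1, TYROBP and ITGAM, and the summed level of the list was 3.89 to 6.84 CPM (counts per 1 000 000) with IL-33 and 3.57 to 8.32 CPM in Control. The other 6, CSF1R, AIF1, PTPRC, CD68, CD14 and TREM2, had counts in at least 1 library, and CD68 and TREM2 in every library. The 7 mesenchymal markers, with VIM, FN1 and TAGLN, summed to 7434 to 7797 CPM with IL-33 and to 7005 to 8086 CPM in Control. Their means over the 6 libraries ran from 15.6 CPM in COL1A2 to 3672 CPM in FN1. The 3 epithelial markers summed to 591 to 637 CPM with IL-33 and to 588 to 729 CPM in Control. Of these, KRT18 had a mean of 628 CPM, EPCAM 0.363 CPM and CDH1 0.971 CPM.

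Levels are given as CPM on library sizes scaled by the trimmed mean of M-values (TMM). In this assay 1 tag is read per transcript near its 3' end, so a level does not grow with transcript length and levels of different genes can be set side by side, except for unequal capture of their 3' ends. Rab genes took 0.365% to 0.376% of all counts in the IL-33 libraries and 0.371% to 0.377% in the Control libraries. The summed Rab level was 3706 ± 43.8 CPM with IL-33 and 3755 ± 142 CPM in Control (SD, n = 3 each), a difference within the spread of the Control libraries.

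Of the 62 genes, 46 had enough counts to be tested, 36 of them at a mean of 10 CPM or more over the 6 libraries and 13 at 100 CPM or more. The other 16 did not pass the filter on low counts. Those 46 genes are the ones with enough reads, and statements about differences cover them alone.

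The promoters of 3 members are shown because they stand at opposite ends of the range of levels: RAB3B, the most abundant Rab messenger here, RAB5C, the next, and RAB25, which had 0 counts in all libraries. Each is the stretch of 250 bases before the RefSeq start on GRCh38.p14, 5' to 3' on the gene's strand, and capitals mark the dinucleotide CG.
RAB3B, chr1:51990701-51990950, minus strand: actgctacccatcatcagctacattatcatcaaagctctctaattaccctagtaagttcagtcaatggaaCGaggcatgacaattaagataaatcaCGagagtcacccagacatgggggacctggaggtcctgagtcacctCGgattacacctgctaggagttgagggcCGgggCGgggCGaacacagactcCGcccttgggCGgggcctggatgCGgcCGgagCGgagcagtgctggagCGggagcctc
RAB5C, chr17:42154990-42155239, minus strand: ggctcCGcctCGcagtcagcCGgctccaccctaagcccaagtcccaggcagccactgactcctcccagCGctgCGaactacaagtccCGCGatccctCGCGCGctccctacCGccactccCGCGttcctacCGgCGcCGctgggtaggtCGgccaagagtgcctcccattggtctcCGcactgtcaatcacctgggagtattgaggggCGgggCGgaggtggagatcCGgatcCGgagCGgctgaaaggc
RAB25, chr1:156060910-156061159, plus strand: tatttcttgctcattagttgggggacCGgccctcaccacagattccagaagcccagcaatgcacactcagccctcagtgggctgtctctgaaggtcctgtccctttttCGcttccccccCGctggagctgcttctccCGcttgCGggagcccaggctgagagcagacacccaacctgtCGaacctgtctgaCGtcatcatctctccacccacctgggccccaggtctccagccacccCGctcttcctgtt
These windows hold 12 CG in RAB3B, 23 in RAB5C and 8 in RAB25. RefSeq windows were matched for 49 of the 62 genes. Among the 32 matched genes at 10 CPM or more the median was 23 CG, from 9 to 40, so the window of RAB3B lay below that median although its messenger was the most abundant. Among the 9 matched genes with at most 3 counts in every library the median was 10 CG, from 4 to 28. All 35114 promoters of the table had a median of 11. The E-box CACGTG, searched on both strands, stood in 5 of the 49 windows (10.2%), those of RAB5A, RAB21, RAB31, RAB24 and RAB4A, against 6.35% of all promoters. The letters TATAAA, searched on both strands, stood in 3 of 49 (6.12%), those of RAB40A, RAB7B and RAB6C, against 10.7% of all promoters. These are matches of letters only.

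**Figure D1:**
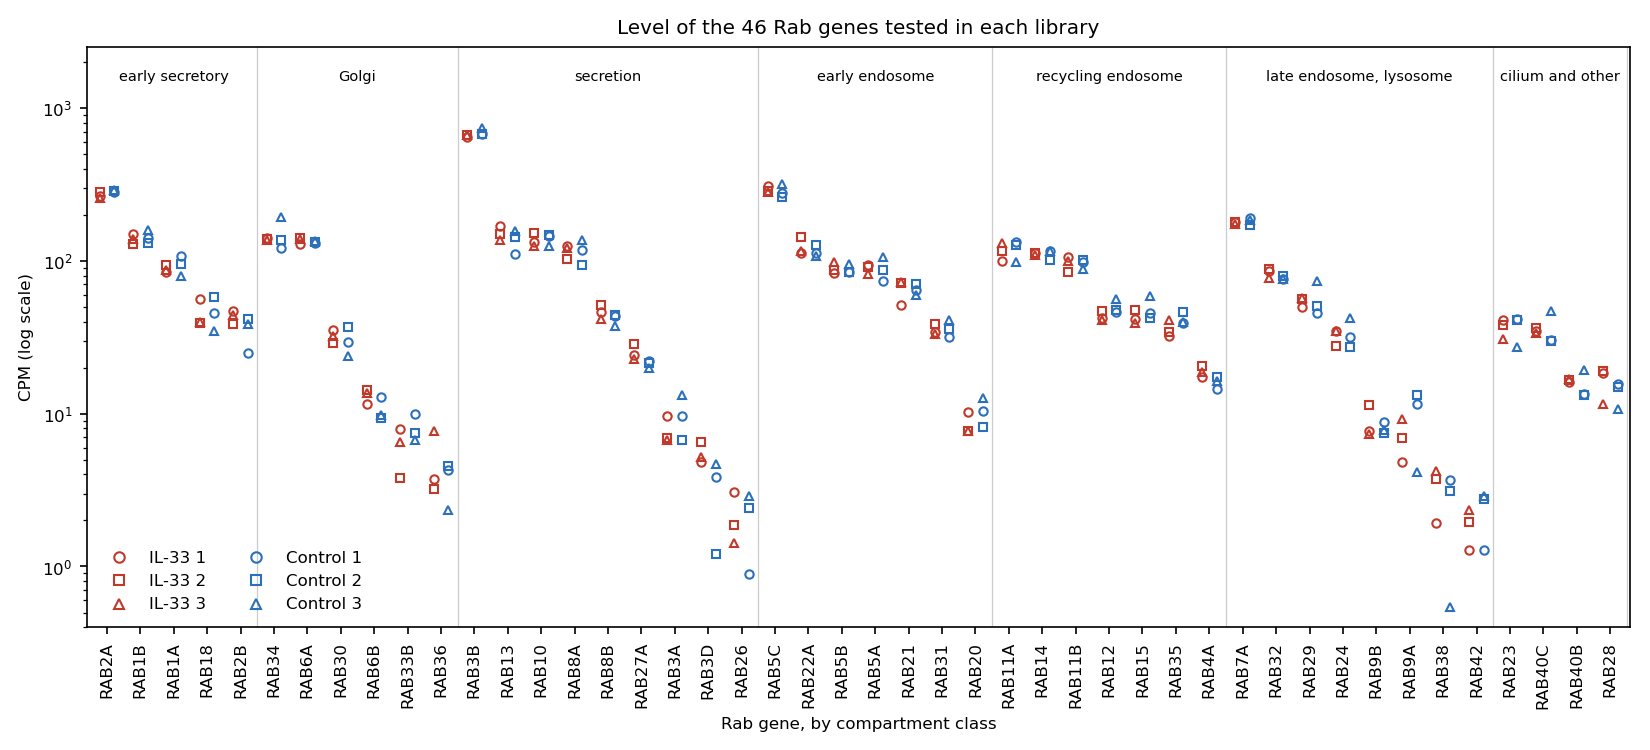
Level of each of the 46 tested Rab genes in CPM (log axis) by compartment class, with 1 point per library, IL-33 in red and Control in blue. RAB3B lies above all other Rab genes in every library, and in most genes the red and blue points overlap.

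In the early secretory pathway, the route from the endoplasmic reticulum (ER) to the Golgi, RAB2A was the most abundant gene. RAB2A, which acts between the ER and the Golgi and in the delivery of membrane to lysosomes, had 263, 284 and 256 CPM in the IL-33 libraries and 281, 284 and 290 CPM in the Control libraries. The groups overlapped at their edge, and the log2 fold change of IL-33 over Control was -0.09 ± 0.09 (SE). RAB1A and RAB1B, which tether ER-derived vesicles to the Golgi, are close paralogs. RAB1B had 139 ± 10.1 CPM with IL-33 and 144 ± 14.4 CPM in Control, and RAB1A 88.7 ± 4.93 CPM with IL-33 and 93.7 ± 13.8 CPM in Control. RAB18, a Rab of the ER and of lipid droplets, was among the 3 most spread genes at 10 CPM or more, with 56.5, 39.4 and 39.5 CPM in the IL-33 libraries and 45.4, 58.2 and 34.7 CPM in the Control libraries. Its coefficient of variation over the 6 libraries was 21.3%, and high and low libraries fell in both groups.

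RAB2B, the paralog of RAB2A on chromosome 14 from 21459020 to 21476973 (GRCh38), had the smallest p of all Rab genes. It had 47.0, 38.3 and 43.9 CPM in the IL-33 libraries and 25.02, 41.8 and 38.4 CPM in the Control libraries. Control 1 was low and the other libraries of both groups overlapped. The log2 fold change was 0.30 ± 0.19 (SE) with a 95% interval from -0.09 to 0.69 (edgeR quasi-likelihood test, adjusted p = 0.999 after Benjamini-Hochberg correction over all genes). Without Control 1 it was 0.10. Without Control 2 it was 0.46, with an unadjusted p of 0.042 and an adjusted p of 0.998 (edgeR quasi-likelihood test). In that fit RAB2B was the only Rab gene at an unadjusted p under 0.05 (2.17% of the 46 tested), beside 408 of 12565 genes. Exons of RAB2B share 124 bases with TOX4 on the opposite strand, which had 8309 counts in all. The strand setting of the counting is not given, so whether reads of overlapping genes on opposite strands were kept apart is not known. Other Rab genes share exon bases too, on the same strand in RAB5C (28.8%, with AC099811.2), RAB13 (24.8%, with AL358472.6) and RAB3D (3.26%, with TMEM205). RAB8A shares 37.8% with AC008894.2, RAB1A 22.9% with CEP68 and RAB6B 6.34% with SRPRB, all on the opposite strand. AC099811.2, AL358472.6 and AC008894.2 are not named among the genes with values, so no counts can be given for them.

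Among Golgi Rabs, RAB34 and RAB6A had nearly the same mean and very different spread. RAB6A, which drives transport within and from the Golgi, was the most even of all Rab genes at 10 CPM or more. It had 128, 140 and 138 CPM in the IL-33 libraries and 132, 133 and 135 CPM in the Control libraries, a coefficient of variation of 3.31% where counting alone gives about 2.93%. RAB34, which is known for lysosome positioning and for the formation of cilia, had 142, 140 and 137 CPM in the IL-33 libraries and 122, 137 and 193 CPM in the Control libraries. Control 3 was the highest and Control 1 the lowest of all 6. The log2 fold change of RAB34 was -0.10 ± 0.14 (SE), and without Control 3 it was 0.11, of the opposite sign. RAB30, another Golgi Rab, had 32.2 ± 3.24 CPM with IL-33 and 30.1 ± 6.59 CPM in Control.

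RAB6B, a paralog of RAB6A best known from neurons, was much lower than RAB6A, with 11.6, 14.4 and 13.7 CPM in the IL-33 libraries and 12.8, 9.38 and 9.77 CPM in the Control libraries. IL-33 1 lay below Control 1, so the groups overlapped, and the log2 fold change was 0.30 ± 0.26 (SE). It was 0.22 without Control 2 and 0.47 without Control 1. RAB33B, which binds the autophagy protein ATG16L1, had 7.89, 3.81 and 6.48 CPM in the IL-33 libraries and 9.93, 7.45 and 6.70 CPM in the Control libraries, a log2 fold change of -0.42 ± 0.35. It was -0.17 without IL-33 2 and -0.66 without IL-33 1. RAB36 had 4.87 ± 2.43 CPM with IL-33 and 3.73 ± 1.20 CPM in Control, and the remaining 7 genes of the class were not tested.

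Among Rabs of polarised and regulated secretion, RAB3B stood apart by its level. RAB3 proteins sit on secretory vesicles that fuse on a calcium signal. RAB3B (chromosome 1, 51907956 to 51990764, GRCh38) had 644, 660 and 669 CPM in the IL-33 libraries and 676, 678 and 736 CPM in the Control libraries. The highest value of any other Rab gene was 317 CPM, in RAB5C, and 185 genes of the whole table had a higher mean than RAB3B. RAB3B alone made up 18.1% of the summed Rab level and 58.4% of its class. Its IL-33 values all lay below its Control values, by a small margin: the log2 fold change was -0.08 ± 0.09 (SE), with a 95% interval from -0.27 to 0.10, and -0.04 without Control 3. Its adjusted p was 0.999 (edgeR quasi-likelihood test).

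The paralogs of RAB3B were low. RAB3A, the main form of neurons, had 9.59, 6.93 and 6.72 CPM in the IL-33 libraries and 9.63, 6.73 and 13.2 CPM in the Control libraries. RAB3C, also a neuronal form, had 0 counts in all libraries, which allows 0.293 to 0.354 CPM in the IL-33 libraries and 0.298 to 0.543 CPM in the Control libraries (3 counts). RAB3D, known from exocrine and mast cells, had 4.80, 6.54 and 5.19 CPM in the IL-33 libraries and 3.87, 1.20 and 4.70 CPM in the Control libraries. All 3 IL-33 values of RAB3D lay above the Control values, with IL-33 1 and Control 3 close together, and the log2 fold change of 0.77 ± 0.48 was the highest of the Rab genes. Its 95% interval ran from -0.23 to 1.78 (edgeR quasi-likelihood test, adjusted p = 0.999), and with a library left out its fold change ran from 0.37 to 1.09. The lower bound came without Control 2, whose 10 counts are the fewest of the 6 libraries.

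RAB27A, which docks lysosome-related organelles and multivesicular bodies at the plasma membrane, had 24.2, 28.7 and 22.6 CPM in the IL-33 libraries and 22.1, 21.4 and 19.9 CPM in the Control libraries. The IL-33 values all lay above the Control values, with IL-33 3 close to Control 1. The log2 fold change of RAB27A was 0.25 ± 0.19 (SE), 0.14 without IL-33 2 and 0.32 without IL-33 3. Its paralog RAB27B had 0, 4 and 0 counts in the IL-33 libraries and 0, 13 and 1 counts in the Control libraries, too few to test. RAB26 and RAB37, other Rabs of secretory granules, were at most 3.09 CPM in any library.

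RAB8A, RAB10 and RAB13, which deliver vesicles from the Golgi and recycling endosomes to the plasma membrane, were all abundant. RAB13, a Rab of cell junctions, had 168, 149 and 137 CPM in the IL-33 libraries and 110, 144 and 157 CPM in the Control libraries, with Control 1 the lowest of all. Its log2 fold change was 0.15 ± 0.13 (SE), 0.01 without Control 1 and 0.25 without Control 3. RAB10 had 136 ± 14.8 CPM with IL-33 and 139 ± 12.7 CPM in Control, RAB8A 117 ± 12.2 CPM with IL-33 and 116 ± 22.1 CPM in Control, and RAB8B 46.4 ± 4.88 CPM with IL-33 and 41.5 ± 3.71 CPM in Control (SD, n = 3 each). In these 3 genes the libraries of the groups overlapped.

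Early endosome Rabs were led by RAB5C. The RAB5 proteins govern the fusion of early endosomes and the maturation of new phagosomes. RAB5C had 308, 286 and 282 CPM in the IL-33 libraries and 279, 262 and 317 CPM in the Control libraries, with Control 3 the highest and Control 2 the lowest. The log2 fold change was 0.03 ± 0.10 (SE), and 0.11 without Control 3. RAB5A had 88.7 ± 6.04 CPM with IL-33 and 88.9 ± 16.2 CPM in Control, and RAB5B 89.6 ± 7.94 CPM with IL-33 and 88.2 ± 6.20 CPM in Control. RAB22A, which sorts cargo from early to recycling endosomes, had 124 ± 16.7 CPM with IL-33 and 115 ± 9.66 CPM in Control, and RAB21, which traffics integrins, 65.01 ± 11.8 CPM with IL-33 and 64.8 ± 5.31 CPM in Control. RAB31, a close relative of RAB22A, had 35.5 ± 2.76 CPM with IL-33 and 36.1 ± 4.62 CPM in Control. RAB20, a Rab of maturing phagosomes, was near 10 CPM, with 8.54 ± 1.47 CPM with IL-33 and 10.4 ± 2.25 CPM in Control.

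Recycling endosome Rabs return receptors to the cell surface. RAB11A, the best known of them, had 99.2, 116 and 131 CPM in the IL-33 libraries and 133, 127 and 98.6 CPM in the Control libraries, so that each group held a low and a high library. RAB14, which acts between the Golgi and endosomes, was even, with 111 ± 2.44 CPM with IL-33 and 110 ± 7.92 CPM in Control, and RAB11B had 96.9 ± 11.1 CPM with IL-33 and 95.7 ± 6.89 CPM in Control. RAB4A, a Rab of fast recycling, had 17.5, 20.4 and 18.6 CPM in the IL-33 libraries and 14.4, 17.3 and 16.3 CPM in the Control libraries. The IL-33 values all lay above the Control values, with IL-33 1 next to Control 2, and the log2 fold change was 0.24 ± 0.21 (SE).

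RAB35 and RAB12 had the smallest p of the Rab genes with a fold change below 0, and neither passed the test. RAB35 takes part in recycling, actin control and the last step of cell division. It had 32.2, 34.1 and 40.8 CPM in the IL-33 libraries and 39.0, 46.5 and 40.0 CPM in the Control libraries. Its log2 fold change was -0.23 ± 0.16 (SE), -0.34 without IL-33 3 and -0.15 without Control 2. RAB12, which directs transferrin receptor to lysosomes and is a substrate of the kinase LRRK2, had 42.2, 46.6 and 40.8 CPM in the IL-33 libraries and 46.1, 47.6 and 56.3 CPM in the Control libraries, a log2 fold change of -0.21 ± 0.15. RAB15, of the same class, had 41.9, 47.5 and 39.1 CPM in the IL-33 libraries and 45.8, 42.3 and 58.8 CPM in the Control libraries. Control 3 was the highest library in RAB12 and RAB15, and without it their log2 fold changes were -0.12 and -0.04, against -0.21 and -0.19 with all libraries.

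Among Rabs of late endosomes, lysosomes and related organelles, RAB7A was the most abundant. RAB7A, which drives the fusion of late endosomes, phagosomes and autophagosomes with lysosomes, had 180, 178 and 174 CPM in the IL-33 libraries and 191, 172 and 185 CPM in the Control libraries. It was the second most even Rab gene, with a coefficient of variation of 3.87%, and its log2 fold change was -0.04 ± 0.10 (SE). RAB32, known from melanosomes and from mitochondria, had 83.7 ± 5.71 CPM with IL-33 and 77.0 ± 2.17 CPM in Control, and its close relative RAB38 between 0.543 and 4.24 CPM. RAB29, a relative that recruits LRRK2, had 50.0, 56.3 and 56.7 CPM in the IL-33 libraries and 45.6, 50.9 and 74.2 CPM in the Control libraries, with Control 3 far above the rest. RAB24, linked to autophagy, had 32.3 ± 3.90 CPM with IL-33 and 33.7 ± 7.50 CPM in Control, and 44.8% of its exon bases are shared with MXD3 on the same strand.

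RAB9A and RAB9B, which return mannose 6-phosphate receptors from late endosomes to the Golgi, were low. RAB9A had 4.80, 6.93 and 9.19 CPM in the IL-33 libraries and 11.5, 13.2 and 4.16 CPM in the Control libraries. Controls 1 and 2 were the highest and Control 3 the lowest of the 6 libraries, and the log2 fold change of -0.49 ± 0.38 (SE) was the lowest of the Rab genes. It was -0.83 without Control 3 and -0.21 without Control 2. RAB9B had 8.77 ± 2.22 CPM with IL-33 and 8.02 ± 0.723 CPM in Control, and RAB42 1.86 ± 0.545 CPM with IL-33 and 2.32 ± 0.891 CPM in Control.

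The last class gathers Rabs of cilia and of ubiquitin ligases. RAB23, a regulator of Hedgehog signalling and cilia, had 40.7, 37.8 and 30.8 CPM in the IL-33 libraries and 41.8, 40.9 and 27.3 CPM in the Control libraries, and its exons share 57.7% of their bases with BAG2 on the opposite strand. RAB28, a Rab of photoreceptor cilia, was the most spread gene at 10 CPM or more, with 18.3, 18.9 and 11.6 CPM in the IL-33 libraries and 15.7, 14.9 and 10.7 CPM in the Control libraries. In both groups 1 library was low. The RAB40 proteins carry a SOCS box that binds a cullin ubiquitin ligase: RAB40C had 34.9 ± 1.37 CPM with IL-33 and 35.7 ± 9.48 CPM in Control, and RAB40B 16.5 ± 0.330 CPM with IL-33 and 15.3 ± 3.39 CPM in Control.

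Levels of neighbouring genes in the order mostly overlapped. The lowest library of RAB3B lay above the highest of RAB5C. RAB5C and RAB2A overlapped, and both lay above every library of RAB7A. RAB7A and RAB34 overlapped because of Control 3 alone, and from RAB34 downwards each gene at 100 CPM or more overlapped its neighbour.

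**Figure D2:**
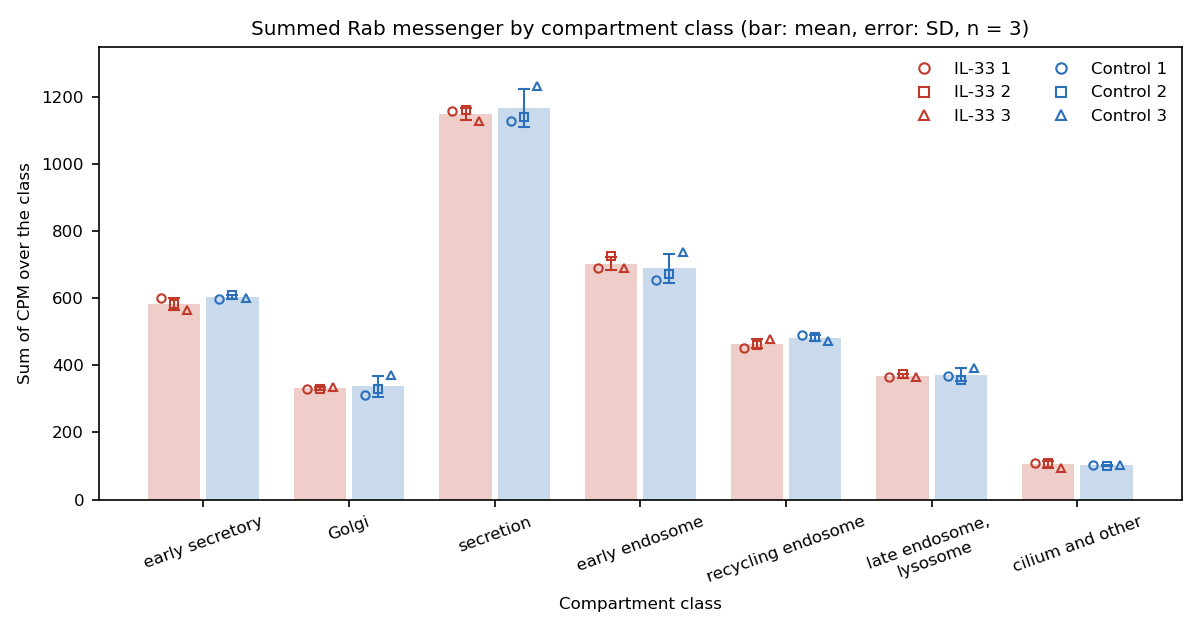
Sum of CPM over the Rab genes of each compartment class, with a bar for the mean, an error bar for the SD (n = 3) and a point per library, IL-33 in red left of Control in blue. Secretion is the highest class in both groups and Control 3 is its highest library.

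Summed by class, secretion Rabs had 1150 ± 17.6 CPM with IL-33 and 1168 ± 57.4 CPM in Control, or 31.1% of the summed Rab level. Early endosome Rabs had 703 ± 19.7 CPM with IL-33 and 689 ± 44.1 CPM in Control (18.7%), and early secretory Rabs 583 ± 17.7 CPM with IL-33 and 603 ± 5.48 CPM in Control (15.9%). Recycling Rabs had 464 ± 13.5 CPM with IL-33 and 482 ± 8.68 CPM in Control, late endosome and lysosome Rabs 369 ± 5.01 CPM with IL-33 and 373 ± 18.7 CPM in Control, Golgi Rabs 332 ± 4.17 CPM with IL-33 and 337 ± 32.1 CPM in Control, and the last class 105 ± 9.58 CPM with IL-33 and 102 ± 2.16 CPM in Control (SD, n = 3 each). Each Rab was placed in 1 compartment from general knowledge of the family, although many, RAB34 and RAB12 among them, act in several. In every class the libraries of the groups overlapped, and the log2 ratio of the class means lay between -0.06 for recycling Rabs and 0.04 for the last class. Control 3 was the highest library of the secretion, early endosome, Golgi and late endosome classes. In a bulk sample, fewer cells that carry a messenger and less of it per cell cannot be told apart.

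**Figure D3:**
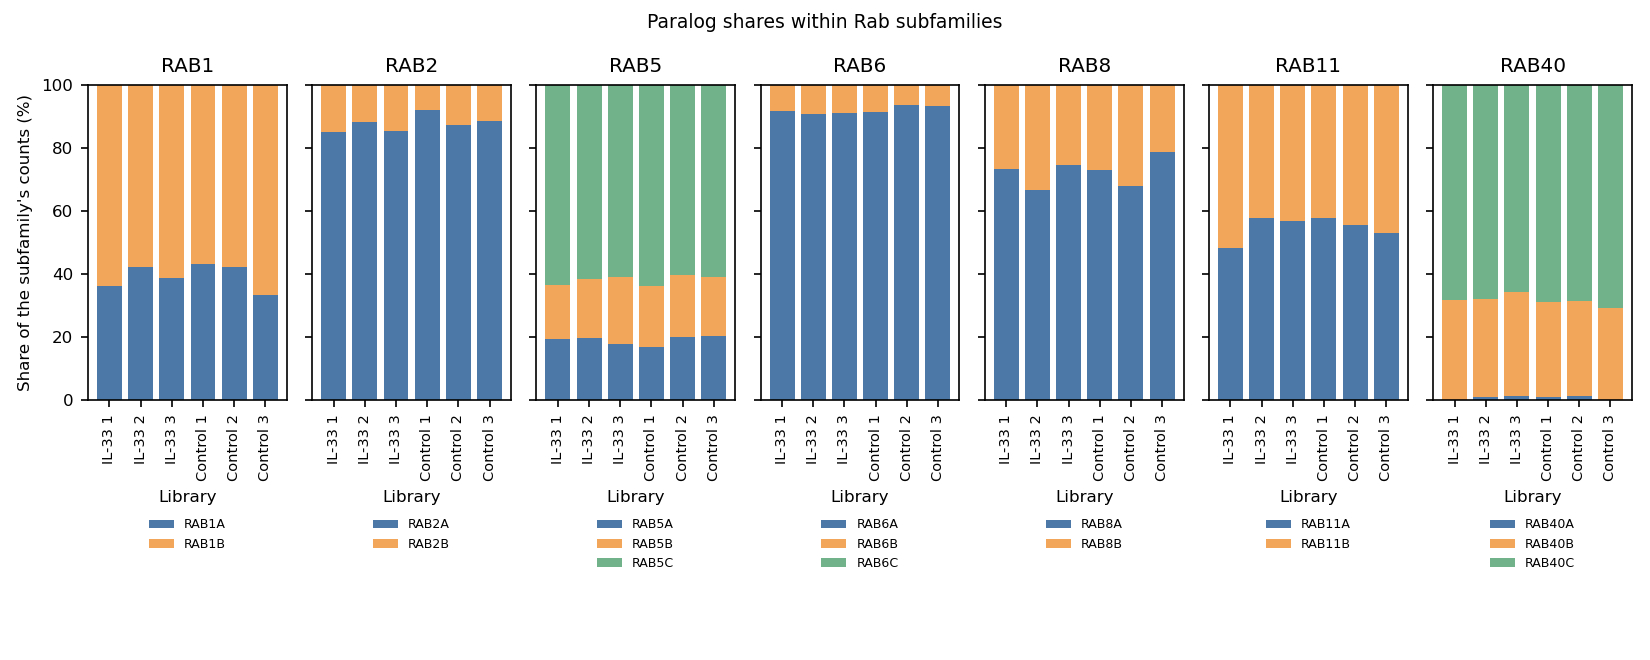
Share of each paralog in the counts of its subfamily, in percent, with 1 bar per library. The leading paralog is the same in all 6 libraries of each subfamily except RAB11, where RAB11B leads in IL-33 1.

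Within subfamilies that had at least 2 members at 10 CPM or more, the leading paralog was the same in every library except in RAB11. The spread of the shares differed: RAB5C ran from 60.4% to 63.8% of RAB5 counts, and RAB8A from 66.6% to 78.7% of RAB8 counts. RAB5C held 62.1% ± 1.38 of RAB5 counts with IL-33 and 61.8% ± 1.81 in Control, and RAB6A held 91.1% ± 0.499 of RAB6 counts with IL-33 and 92.6% ± 1.27 in Control (SD, n = 3 each). RAB2A held 86.1% ± 1.75 of RAB2 counts with IL-33 and 89.1% ± 2.43 in Control. RAB1B led RAB1 with 61.0% ± 3.00 with IL-33 and 60.5% ± 5.39 in Control. RAB8A held 71.4% ± 4.24 of RAB8 counts with IL-33 and 73.2% ± 5.39 in Control. RAB11A held 48.3%, 57.7% and 56.7% of RAB11 counts in the IL-33 libraries and 57.6%, 55.5% and 52.8% in the Control libraries, so that RAB11B was the more abundant form in IL-33 1 alone. In RAB40 the groups did not overlap, though they were close: RAB40B held 31.7%, 30.95% and 32.9% in the IL-33 libraries and 30.3%, 30.2% and 29.1% in the Control libraries. With 3 libraries a group, no exact permutation p can fall below 0.1, and none is given for these shares.

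**Figure D4:**
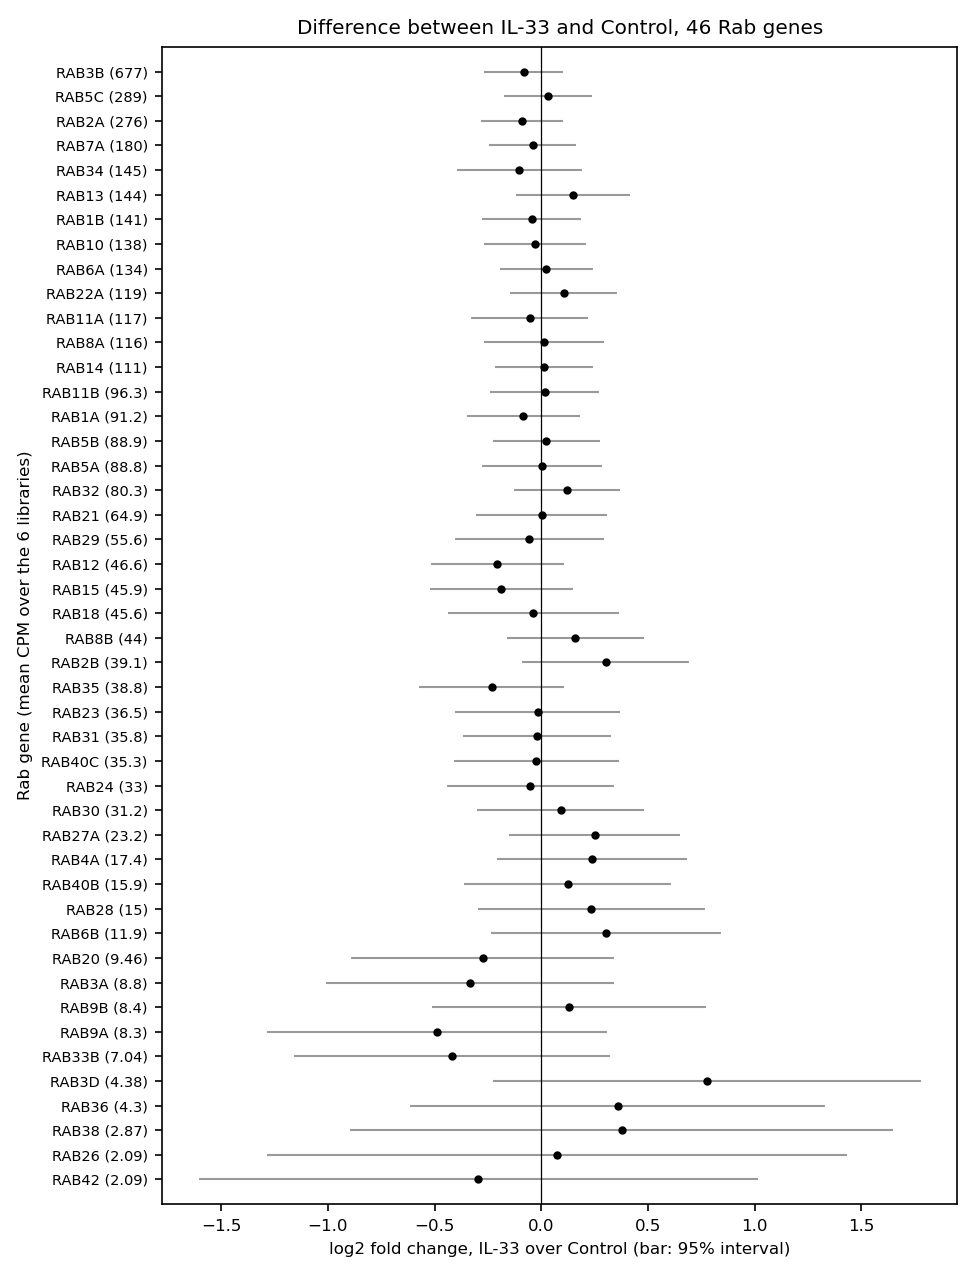
Log2 fold change of IL-33 over Control with its 95% interval for the 46 tested Rab genes, from the most to the least abundant, with the mean CPM in parentheses. Every interval crosses 0, and intervals widen toward the genes with few counts.

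Setting IL-33 against Control asks which Rab messengers differ after 24 h of the cytokine. By the edgeR quasi-likelihood test 0 of the 46 Rab genes passed an adjusted p of 0.05, corrected over all 12125 genes, of which 0% passed. At an unadjusted p under 0.05 there were also 0, against 2.43% of all genes, and DESeq2 and limma-voom gave 0 at both thresholds. The smallest unadjusted p was 0.122. In 3 Rab genes, RAB27A, RAB4A and RAB3D, each IL-33 library exceeded each Control library (4.54% of all genes), and in 1, RAB3B, each was below (3.51% of all genes). Together these are 8.70% of the Rab genes tested, against 8.06% of all genes. The share is close to that background.

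The log2 fold changes of the 46 genes ran from -0.49 to 0.77, 24 above 0 (52.2%, against 48.9% of all genes) and 22 below, with a median of 0.00 beside -0.01 over all genes. The median size without regard to sign was 0.10, beside 0.13 over all genes. For 38 of the 46 genes (82.6%, against 73.4% of all genes) the 95% interval lay within -1 to 1, and for 27 it lay within -0.5 to 0.5, against 39.8% of all genes. The median level of the tested Rab genes was 44.8 CPM, beside 23.3 CPM over all genes, and their median SE 0.16, beside 0.21. For RAB3B, RAB5C, RAB2A, RAB7A and RAB6A the interval bound farthest from 0 was -0.28, in RAB2A, so larger differences in these messengers lie outside their intervals. For the other 8, RAB3A, RAB9A, RAB33B, RAB3D, RAB36, RAB38, RAB26 and RAB42, the interval reached past -1 or 1, and a change of that size could not be told from none in these libraries. Counts alone do not order these widths: RAB9A and RAB9B had 443 and 444 counts in all, and their coefficients of variation over the 6 libraries were 44.0% and 18.3%.

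**Figure D5:**
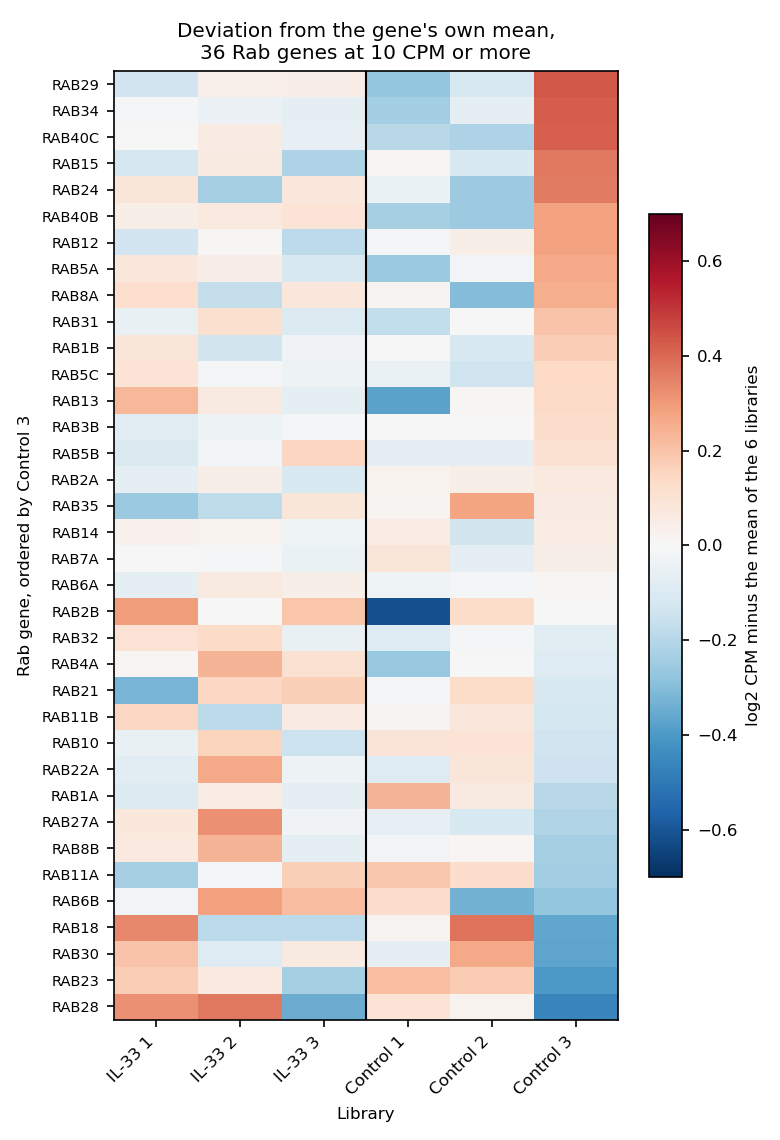
Deviation of each library from the gene's own mean over the 6 libraries, in log2 CPM, for the 36 Rab genes at 10 CPM or more, ordered by Control 3. Control 3 holds many of the strongest values in both directions, such as the high value in RAB29 and the low value in RAB23.

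Control 3 shaped many of the single values. It was the lowest of the 6 libraries in 12 of the 46 Rab genes and the highest in 17. Over all genes it was the lowest in 27.1% and the highest in 26.1%. Among genes at 10 CPM or more, RAB29, RAB34 and RAB40C lay above the mean of Controls 1 and 2 by 0.62, 0.58 and 0.63 on the log2 scale in Control 3, and RAB23, RAB18 and RAB28 lay below it, at -0.60, -0.58 and -0.52. Rab genes of 1 class went both ways. Without Control 3, 0 of 47 Rab genes passed (0.0476% of all genes), with a smallest adjusted p of 0.682 (edgeR quasi-likelihood test), and the median log2 fold change was 0.06. Then 4 Rab genes had an unadjusted p under 0.05 (8.51%, against 6.30% of all genes): RAB13 (0.25 ± 0.10), RAB2B (0.37 ± 0.17), RAB3D (1.09 ± 0.50) and RAB9A (-0.83 ± 0.32), given as log2 fold change ± SE. In all 4 of these genes Control 3 lay nearer to the IL-33 libraries than the mean of the other Controls did, so that leaving it out made the difference larger.

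Of the 62 Rab genes, 8 had 0 counts in all 6 libraries: RAB17, RAB19, RAB25, RAB39B, RAB3C, RAB44, RAB4B and RAB6C. A further 3, RAB7B, RAB39A and RAB43, had at most 3 counts in every library. RAB17 and RAB25 are Rabs of polarised epithelial cells, and RAB39B is best known from neurons. RAB6C is a retrogene related to RAB6A. RAB7B had 0, 1 and 1 counts in the IL-33 libraries and 0, 0 and 3 counts in the Control libraries, and RAB39A 2, 0 and 2 counts in the IL-33 libraries and 0 in each Control library. RAB41, RAB37, RAB27B, RAB40A and RAB33A had more but were not tested, with RAB37 at 25, 6 and 5 counts in the IL-33 libraries and 0, 16 and 0 counts in the Control libraries. No direction is read from these counts.

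For RAB43 and RAB4B a count near 0 need not mean a messenger near 0, and whether shared exons lowered the count was not tested. RAB43 shares 79.3% of its exon bases with the readthrough gene ISY1-RAB43 on the same strand, and RAB4B shares 27.4% with RAB4B-EGLN2 and 25.7% with MIA-RAB4B. These 3 readthrough genes also had 0 counts. How reads that lie in exons of more than 1 gene were counted is not given in the sources used here.

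The proteins that run the Rab cycle were taken as a list of 123 genes: prenylation and membrane extraction factors, exchange factors that load GTP, GTPase-activating proteins and effectors. Of these, 112 could be tested and 0 changed, and their smallest adjusted p was 0.999 (edgeR quasi-likelihood test). At an unadjusted p under 0.05 there were 3, all effectors, 2 of them higher (1.45% of all genes) and 1 lower (0.981% of all genes). GDI2, which extracts Rabs from membranes, had 109 ± 6.03 CPM with IL-33 and 119 ± 12.3 CPM in Control (SD, n = 3 each). Among activating proteins RAB3GAP1, a subunit of the complex that acts on RAB3 and serves RAB18, had a log2 fold change of -0.03 ± 0.10 (SE), RABGAP1 -0.02 ± 0.11 and EVI5 -0.16 ± 0.12. The most abundant exchange factor genes were SBF1, GAPVD1, which acts on RAB5, and DENND5A, and SBF1 ranged from 65.4 to 152 CPM within Control. Among effectors the lipid droplet protein PLIN3, the Golgi tether GOLGA2 and the RAB5 effector RABEP1 were the most abundant, with log2 fold changes of -0.05 ± 0.11, -0.13 ± 0.12 and -0.09 ± 0.12.

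The 3 effectors at an unadjusted p under 0.05 did not pass the adjusted test. RUFY2, a RUN and FYVE domain protein of endosomes, had 31.4, 28.03 and 32.5 CPM in the IL-33 libraries and 21.8, 27.7 and 19.2 CPM in the Control libraries, a log2 fold change of 0.42 ± 0.19 (SE). MICALL2, an effector of RAB13, had 7.57, 2.83 and 4.95 CPM in the IL-33 libraries and 1.19, 2.40 and 1.81 CPM in the Control libraries, a log2 fold change of 1.51 ± 0.54. SYTL2, an effector of RAB27A, had 10.2, 6.93 and 7.78 CPM in the IL-33 libraries and 14.9, 12.3 and 15.7 CPM in the Control libraries, a log2 fold change of -0.78 ± 0.27. In all 3 the groups did not overlap. Over all 112 tested regulators and effectors, the IL-33 libraries lay above all Control libraries in 2 (4.54% of all genes) and below all of them in 8 (3.51% of all genes). RAB13 and RAB27A, the partners of MICALL2 and SYTL2, had log2 fold changes of 0.15 ± 0.13 and 0.25 ± 0.19, as above.

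Over the 112 tested regulators and effectors 37 log2 fold changes were above 0 and 75 below, where 48.9% of all genes were above 0. Their median was -0.05, beside -0.01 over all genes. Without Control 3, 53 of 114 were above 0 and 61 below, and the median was -0.02. The list is described by these counts alone, and nothing particular to it is read from them.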

How the data were processed

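Libraries for 3' sequencing (QuantSeq 3' FWD) came from TRIZOL-extracted RNA, per the labels' protocols. The deposited file holds raw counts, 1 row per gene symbol and 1 column per library. Per the submitters' processing notes, STAR 2.7.5a, HTSeq 0.6.1, edgeR and hg38 were used, with no role stated. For the annotation and strand setting, nothing is given in the sources used here. A tag outside a gene's annotated 3' end is not counted for it.

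Of 27470 rows, 1 without values was left out. Genes were filtered with filterByExpr (minimum count 10, total 15), scaled by TMM and tested with edgeR 4.0.16 (R 4.3.3), with robust quasi-likelihood dispersions, a model of group alone, and p-values adjusted by Benjamini-Hochberg over 12125 genes (threshold 0.05). The script was tested on simulated counts. DESeq2 1.42.0 and limma-voom (limma 3.58.1), other scalings and filters, the replicate number as a block and each library left out in turn served as alternatives. SE and 95% intervals come from the same test. No pair of replicates held the same counts within sampling noise, with a chi-square per degree of freedom of 5.56 to 15.8. Positions and overlaps came from GENCODE 29 on GRCh38, matched by symbol for 62 of 62 genes. Where RefSeq gave several promoter windows, the first was used. Limits based on counts (3 counts) cover counting error only, since reads made by PCR are not independent molecules.

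The Rab genes, classes and regulator list were chosen with earlier results of these data known. Named genes were those at 100 CPM or more, the highest of each class, those whose groups did not overlap, the 5 with the smallest p in each direction, the 3 most and least spread at 10 CPM or more, and regulators at an unadjusted p under 0.05 or among the 3 most abundant of their kind. Other members complete their class. The values of 1 regulator among the most abundant of its kind are not reported here.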

Additional observations from a re-analysis of the deposited data

How the results depend on the processing

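The count of 0 changed Rab genes and 0 changed regulators was the same under every alternative run, those with a library left out included. The count of 0 changed genes over the whole table held with limma-voom, a filter at 10 CPM, unscaled library sizes, size factors from DESeq2, the replicate block and an adjusted p under 0.1. It was 3 without the low-count filter (KIRREL3-AS2, MALAT1 and NEAT1), 1 with DESeq2 (KIRREL3-AS2), and from 0 to 6 with a library left out, the 6 without Control 3. None of these is a Rab gene or a listed regulator. The median log2 fold change of the Rab genes ran from -0.0098 to 0.060 with a library left out, the highest without Control 3, and from -0.0022 to 0.016 with the other alternatives. Direction held in all 6 fits with a library left out for 21 of the 46 Rab genes and changed in at least 1 for 25. Among the named genes whose direction changed, the log2 fold change ran from -0.028 to 0.11 in RAB5C, -0.17 to 0.041 in RAB11A, -0.12 to 0.15 in RAB8A, -0.11 to 0.032 in RAB1B, -0.0011 to 0.063 in RAB6A, -0.012 to 0.18 in RAB22A, -0.23 to 0.17 in RAB18, -0.12 to 0.033 in RAB10, -0.18 to 0.090 in RAB23, -0.044 to 0.045 in RAB14 and -0.23 to 0.11 in RAB34. No label states a pairing by replicate number. Libraries of the same number had deviations from their group means that correlated at -0.086, 0.027 and -0.136, and not every library correlated best with its own number. With the replicate block 0 genes and 0 Rab genes changed, and RAB23 had a log2 fold change of 0.0025 against -0.02. The cause of these shifts was not tested. In 8 Rab genes, each with a mean under 10 CPM, the 95% interval reached past -1 or 1.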
